A study of Mus musculus with 18 samples.

Results

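Prehypertrophic and hypertrophic chondrocytes of the late fetal and newborn mouse skeleton were taken as the stromal cells that carried at least 5 unique molecular identifiers (UMIs, each standing for 1 captured transcript molecule) summed over Ihh and Col10a1. By this rule 567 of 28952 stromal cells were selected in the 3 perinatal stromal libraries, out of 56201 cells in the whole series. The selected chondrocytes numbered 208 at embryonic day 16.5 (E16.5), 207 at E18.5 and 152 on the day of birth (P0). They were compared with 15078 other cartilage-like cells of the same libraries, called Acan cells here, which had under 2 UMIs of Ihh and Col10a1 together and at least 5 UMIs of Acan (3647, 4255 and 7176 cells). Because the selected chondrocytes were chosen by their own Ihh and Col10a1 UMIs and the Acan cells by Acan, Ihh, Col10a1 and Acan are described without a test.

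All 3 libraries came from C57B6/J mice, and the labels name no treatment. The cells were CD45-Ter119- stroma sorted from bone marrow preparations of pooled animals, in which the whole skeleton apart from the head bones had been digested with collagenase, so cartilage entered a sample labelled as bone marrow. Each stage was 1 library of 3' single-cell RNA sequencing with antibody tags, and differences between stages therefore carry no test, and intervals on them cover counting error only. Differences between groups of cells were tested across the 3 libraries. Those p-values rest on the spread between 3 pools of animals of different age and on a variance moderated across all genes.

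In the growth plate, chondrocytes divide in columns, leave the cell cycle, enlarge, mineralize their matrix and are then replaced by bone and marrow. Indian hedgehog (Ihh) is secreted by cells that have just left the dividing columns, the prehypertrophic cells, and keeps up the production of parathyroid hormone-related protein (Pthlh) at the ends of the bone. That protein acts back on its receptor Pth1r and delays hypertrophy. Type X collagen (Col10a1) is the matrix protein by which the later, hypertrophic cells are usually recognised.

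The label was checked against markers that the rule did not use. Pth1r was detected in 206 of 208, 205 of 207 and 149 of 152 selected chondrocytes, whose median depth was 24506.5, 33668 and 30825 UMIs. In Acan cells it was detected in 54.2%, 62.9% and 59.6%, at median depths of 14572, 17168 and 16638.5 UMIs. Endothelial and Schwann clusters, which should lack the gene, gave 9.75%, 6.63% and 12.6% at 10543.5, 10662 and 11413 UMIs, and this share was taken as the background from free RNA. Acan reached 5 UMIs in 206 of the 208 selected chondrocytes at E16.5 and in 207 of 207 at E18.5, although the rule did not ask for it. Of the cluster codes deposited with the data, C5 held 205, 187 and 145 of the selected chondrocytes, 537 of 567 in all. They were 31.0%, 46.6% and 13.0% of that cluster, which also held 307, 130 and 806 Acan cells.

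Among the endothelial and Schwann cells 0 of 782 met the rule, which allows a share of up to 0.384% (3 cells of the total), and in the 3 libraries 2.97%, 4.22% and 4.47% of them carried any Col10a1. No doublet caller was run here; the authors had already removed the cells with the most UMIs or genes. The selected chondrocytes lay close to that ceiling. Of them 13.5%, 15.0% and 15.1% were within 10% of the highest UMI count of their library, against 1.18%, 0.846% and 1.25% of Acan cells, so the deepest cells of this kind may not be in the data. The 6 hematopoietic markers gave 7, 7 and 6 UMIs in all in the selected chondrocytes (1.37, 1.03 and 1.31 UMIs per 1000000, CPM, against 1.90, 1.49 and 2.12 CPM in Acan cells), and Ptprc (CD45) was at 0, as it also was in Acan cells at E16.5 and E18.5. The 6 endothelial markers summed to 9.39, 12.9 and 8.29 CPM against 12.5, 9.56 and 17.1 CPM in Acan cells, so they were above Acan cells at E18.5. The 7 osteoblast markers summed to 710, 1056 and 915 CPM against 2638, 5294 and 7648 CPM, a sum in which Col1a1 and Col1a2, the 2 that fell, outweigh the 5 that rose. From 26 to 38 cell barcodes were shared between pairs of libraries, and 0 belonged to a selected chondrocyte.

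The rule admitted cells of different kinds. At E16.5, 96 of the 208 selected chondrocytes held no Col10a1 UMI, 24 held some but no more than Ihh, and 88 held more Col10a1 than Ihh. The corresponding numbers were 135, 44 and 28 at E18.5 and 105, 17 and 30 at P0. Cells with more Col10a1 than Ihh UMIs are called Col10a1-leaning here, and all others Ihh-leaning. Ihh persisted in most Col10a1-leaning cells. Their median was 7, 10 and 4.5 Ihh UMIs per cell, and 7, 0 and 6 of all selected chondrocytes had none. Col10a1 was spread far more widely, from 0 to 596, 545 and 1321 UMIs per cell.

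**Figure D1:**
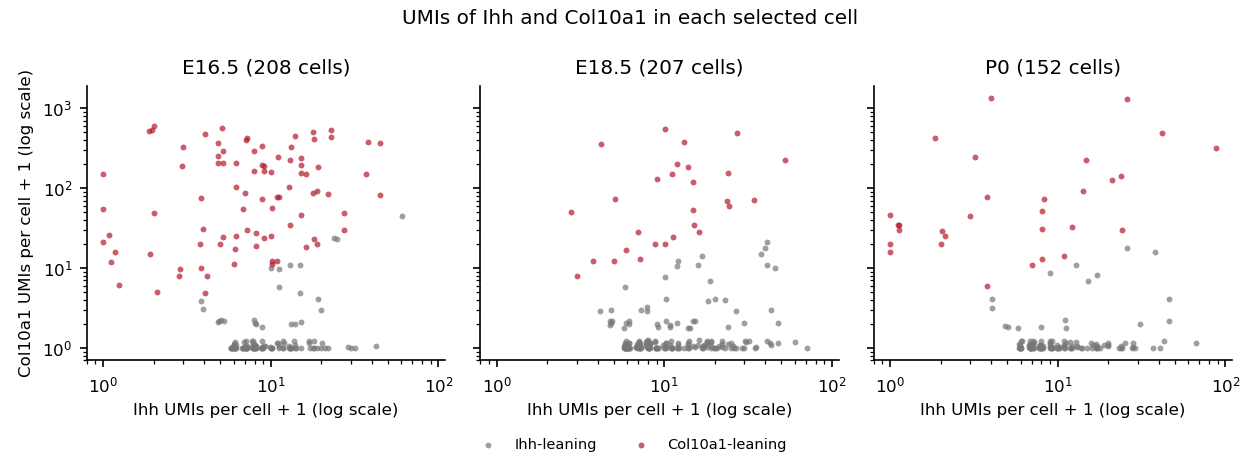
UMIs of Ihh (horizontal) and Col10a1 (vertical) in each selected chondrocyte at E16.5, E18.5 and P0, both plus 1 on log scales with a small random offset, grey for Ihh-leaning and red for Col10a1-leaning cells. Most grey cells lie along the bottom edge, without Col10a1, and the 88, 28 and 30 red cells reach 596, 545 and 1321 UMIs.

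The cells nearest the cut are described with no test. With 4 UMIs of Ihh and Col10a1, just outside the rule, Pth1r stood at 342, 379 and 460 CPM in 31, 31 and 32 cells. With 5 UMIs, just inside, it stood at 492, 495 and 654 CPM in 25, 29 and 14 cells. The level did not climb at every step, since at E16.5 cells with 3 UMIs were at 439 CPM and at P0 cells with 7 UMIs were at 438 CPM.

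The selected chondrocytes held more Pth1r, Mef2c, Alpl, Panx3 and Wnt4 than Acan cells, and less Mki67, Top2a, Boc, Gas1 and Hhip. Across all genes, 4970 of 14140 tested passed an adjusted p of 0.05 (35.1%), of which 2516 were higher (17.8%) and 2454 lower (17.4%), by edgeR's quasi-likelihood test on counts summed per library and cell group. The median log2 fold change over all genes tested was -0.05. Acan cells are a mixed group that holds fibroblast-like and articular cells as well. The 6 fibroblast markers summed to 1822, 3164 and 4113 CPM there against 882, 1257 and 1415 CPM in the selected chondrocytes. A comparison within cluster C5 alone, chosen after the data were seen, had sums of 801, 896 and 1462 CPM for the same 6 markers in its Acan cells. The selected chondrocytes were also deeper, and with Acan cells matched to them on UMIs per cell 1773 genes were higher and 1644 lower. Matching was by coarse bins of depth. Median depth stayed at 24506.5, 33668 and 30825 UMIs in selected chondrocytes against 20215, 33035 and 26068 in the matched Acan cells. Leaving out E18.5 gave 1383 higher and 1239 lower genes, and applying the rule after thinning cells to 5000 UMIs, with shallower cells left out, gave 1243 and 1206. Here and below thinning served only to choose the cells, whose full counts were then summed and tested. Median depth therefore still differed, at 21880.5, 35070 and 28013 UMIs in selected chondrocytes against 15578, 18303 and 18012 in Acan cells. The comparison within C5 called 986 genes higher and 649 lower of 10839 tested. It kept 856 of the 2516 higher and 460 of the 2454 lower calls, and called 29 and 15 of them in the opposite direction. Within C5 the log2 fold changes of Pth1r, Mef2c, Alpl, Panx3 and Wnt4 were 2.07, 1.61, 3.53, 2.04 and 1.27. Those of Mki67, Top2a, Boc, Gas1 and Hhip were -1.40, -1.21, -1.34, -0.53 and -1.96. Each was a smaller change than against all Acan cells.

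Receptors and hedgehog components came first. Pth1r, the receptor of both parathyroid hormone and its related protein, measured 79.9, 84.8 and 89.5 CPM in Acan cells at E16.5, E18.5 and P0. It measured 591, 825 and 681 CPM in Ihh-leaning cells and 1246, 1634 and 1473 CPM in Col10a1-leaning cells. The 3 groups did not overlap in any library. How many of all tested genes were separated in this way was not counted, so non-overlap here and below is only a description. Over all selected chondrocytes the log2 fold change of Pth1r was 3.54 ± 0.08 (SE from the F statistic, n = 3 libraries, edgeR adjusted p = 6.3e-08). Pthlh, the ligand, lay at 7.3, 9.0 and 9.9 CPM in Acan cells and at 0, 8 and 3 UMIs in all among the selected chondrocytes, a log2 fold change of -3.54 ± 0.40 (edgeR adjusted p = 0.00022) that could not be fitted within C5. Receptor and ligand thus stood on opposite sides of this comparison.

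Of the 15 tested genes of the hedgehog and PTHrP pathway, 3 were higher and 8 lower, with a median of -0.67. Within C5 2 of the 3 and 3 of the 8 kept the call. Disp1, which releases hedgehog from the cells that make it, rose from 5.64, 7.37 and 10.2 CPM to 19.9, 19.0 and 23.1 CPM (log2 fold change 1.64 ± 0.15, edgeR adjusted p = 5.9e-05). Ptch1 encodes the hedgehog receptor and is itself a transcriptional target of the pathway. It stood at 109, 103 and 89.2 CPM in Acan cells and at 134, 127 and 143 CPM in the selected chondrocytes, a log2 fold change of 0.62 ± 0.09 (edgeR adjusted p = 0.00072). Acan cells of cluster C5 held more, 222, 247 and 227 CPM, so within that cluster the direction turned to -0.72 (edgeR adjusted p = 1.6e-05), and after thinning it was at -0.25 (edgeR adjusted p = 0.23). Thinning changed which cells were chosen, leaving 82, 40 and 35 selected chondrocytes. Of these 84.1%, 50% and 65.7% were Col10a1-leaning, against 42.3%, 13.5% and 19.7% before. The coreceptors Boc and Gas1 fell by 3.15 and 3.28 on the log2 scale, and the hedgehog-binding protein Hhip fell by 2.38 (edgeR adjusted p = 1.2e-06, 1.3e-06 and 1.0e-05). Within C5 Gas1 was at -0.53 with an edgeR adjusted p of 0.11.

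Transcription regulators of hypertrophy, a list that includes the FGF receptor Fgfr3, were mostly higher, with 11 of 14 tested higher, 2 lower and a median of 1.66. Within C5 9 of the 11 kept the call. Mef2c, a transcription factor needed for hypertrophy and Col10a1 expression, measured 104, 76.7 and 81.9 CPM in Acan cells and 795, 663 and 568 CPM in the selected chondrocytes. Its log2 fold change was 3.14 ± 0.08 (edgeR adjusted p = 8.7e-08), and every library of one group lay above every library of the other. Sp7 (3.03), Foxa2 (2.24), Dlx5 (2.23), Runx2 (1.70), Foxa3 (1.62) and the FGF receptor Fgfr3 (1.20), a brake on proliferation in cartilage, also rose. Their log2 fold changes within C5 were smaller, at 0.80, 1.22, 0.65, 0.31, 0.63 and 0.35 in the same order. Runx3 rose by 1.84 against all Acan cells but stood at -0.095 within C5 (edgeR adjusted p = 0.39). The 2 that fell were Hdac4 (-0.74), a repressor of Mef2 and Runx2 activity, and Zfp521 (-1.23), which stood at -0.36 within C5 with an adjusted p of 0.14 by edgeR.

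**Figure D2:**
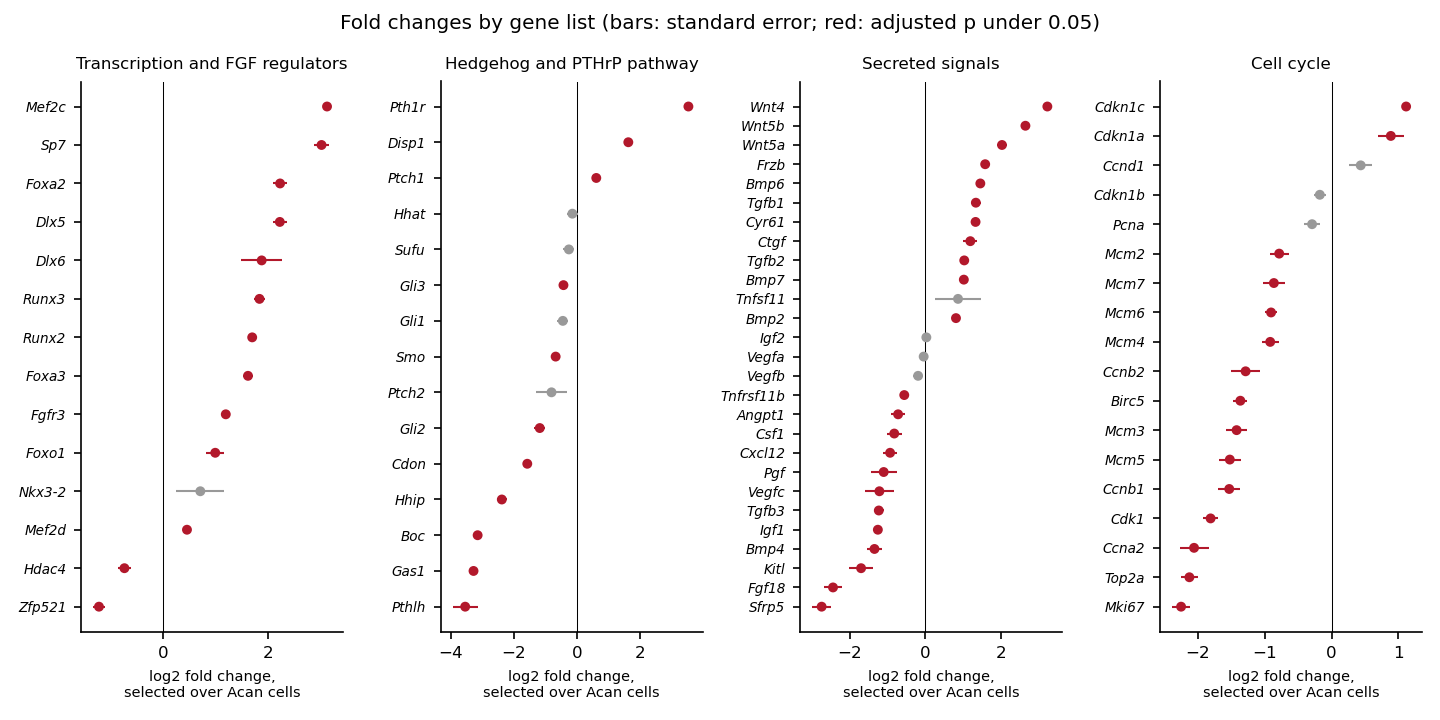
Log2 fold change (horizontal) of each tested gene in 4 lists, selected chondrocytes over Acan cells. Bars are the SE taken from the edgeR F statistic, and red marks an edgeR adjusted p under 0.05. Pth1r, Mef2c, Sp7 and Wnt4 lie above 3, while Boc, Gas1 and Pthlh lie below -3.

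Matrix and mineralization genes were mostly higher. Of the 22 tested genes of this list 14 were higher and 4 lower, with a median log2 fold change of 2.88. Within C5 11 of the 14 and 0 of the 4 kept the call. The 14 include Dmp1, which had no UMI in the selected chondrocytes at E18.5. Ibsp (bone sialoprotein) measured 4.1, 6.56 and 25.5 CPM in Acan cells and 421, 181 and 220 CPM in the selected chondrocytes (4.95 ± 0.56, edgeR adjusted p = 0.00021). Alpl, the alkaline phosphatase that frees phosphate for mineral, measured 4.74, 8.9 and 11.5 CPM against 193, 160 and 215 CPM (4.73 ± 0.21, edgeR adjusted p = 1.4e-06). Spp1 (osteopontin) measured 56.4, 75.5 and 189 CPM against 1856, 390 and 1759 CPM (3.71 ± 0.43, edgeR adjusted p = 0.00023). The share of all tested genes whose libraries were fully separated was not counted. For Ibsp, Alpl and Spp1 the lowest selected library lay above the highest Acan library. For Ibsp this did not hold of Ihh-leaning cells alone, which were at 22.1, 59.2 and 2.65 CPM, at P0 below Acan cells, while Col10a1-leaning cells were at 1046, 954 and 1237 CPM. Panx3, a channel protein of hypertrophic cells and osteoblasts, rose by 4.93 ± 0.09 from 19.6, 15.5 and 10.6 to 464, 432 and 309 CPM.

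Several enzymes rose with them. Smpd3 (4.28), a sphingomyelinase whose loss impairs skeletal mineralization, Sgms2 (4.12), which makes sphingomyelin, Phex (4.87), a protease of phosphate balance, and Phospho1 (4.87), a phosphatase of matrix vesicles, all passed the test in the same direction in 3 of 3 libraries. Phospho1 rested on 31, 23 and 15 UMIs. Of the phosphate and pyrophosphate handlers in the list, Slc20a1 (-0.24), Slc20a2 (-0.24) and Enpp1 (0.05) did not pass and Ank (-0.63) fell, a call lost in most alternatives, among them DESeq2, the comparison within C5 and thinning, after which its log2 fold change was 0.0011. Genes better known from osteoblasts were also measured. Ifitm5 rose by 4.19, and Bglap (osteocalcin) rose by 4.89 on counts of 16, 143 and 157 UMIs. The collagens Col1a1 and Col1a2 fell by 2.81 and 2.27 against all Acan cells and stood at 0.38 and 0.076 within C5, with edgeR adjusted p-values of 0.36 and 0.67. Mmp13, the collagenase of the last hypertrophic cells, was nearly missing, with 19, 3 and 1 UMIs in all selected chondrocytes (edgeR adjusted p = 0.26).

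Start-site sequences of Ibsp and Spp1, which lie near each other on chromosome 5 and gave the largest contrast between Col10a1-leaning and Ihh-leaning cells, of Sgms2 and of the rule gene Col10a1 are printed from RefSeq (build GRCm38.p6), each running from 250 bases before to 50 bases after the annotated start, 5′ to 3′ on the gene's own strand. Capitals mark the core letters bound by RUNX factors, TGTGGT, or the same core on the other strand, ACCACA.
Ibsp, chr5:104299037-104299336, plus strand: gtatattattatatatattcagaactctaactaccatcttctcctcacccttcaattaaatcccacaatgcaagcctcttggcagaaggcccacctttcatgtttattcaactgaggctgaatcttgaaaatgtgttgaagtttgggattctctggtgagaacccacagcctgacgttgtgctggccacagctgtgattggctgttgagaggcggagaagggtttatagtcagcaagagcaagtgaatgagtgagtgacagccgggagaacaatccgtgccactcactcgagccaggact
Spp1, chr5:104434861-104435160, plus strand: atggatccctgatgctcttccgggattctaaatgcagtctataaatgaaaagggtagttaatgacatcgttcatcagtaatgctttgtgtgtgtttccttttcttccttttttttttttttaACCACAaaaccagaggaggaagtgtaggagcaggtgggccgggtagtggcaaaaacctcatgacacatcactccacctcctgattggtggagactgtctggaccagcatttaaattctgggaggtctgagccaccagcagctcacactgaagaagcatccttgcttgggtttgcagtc
Sgms2, chr3:131491394-131491693, minus strand: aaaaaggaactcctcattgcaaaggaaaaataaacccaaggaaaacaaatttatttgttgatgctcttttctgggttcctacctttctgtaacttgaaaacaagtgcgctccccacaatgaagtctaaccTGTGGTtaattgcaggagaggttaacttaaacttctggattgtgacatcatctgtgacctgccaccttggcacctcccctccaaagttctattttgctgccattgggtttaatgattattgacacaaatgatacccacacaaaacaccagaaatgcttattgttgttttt
Col10a1, chr10:34389731-34390030, plus strand: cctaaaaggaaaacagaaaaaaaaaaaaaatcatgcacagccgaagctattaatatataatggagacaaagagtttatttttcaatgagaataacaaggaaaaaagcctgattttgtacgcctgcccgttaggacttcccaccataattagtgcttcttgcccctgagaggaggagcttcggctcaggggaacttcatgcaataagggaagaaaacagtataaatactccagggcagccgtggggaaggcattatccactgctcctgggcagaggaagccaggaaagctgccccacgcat

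For genes with several windows the one with the most matches was printed, so the matches shown for Spp1 (2 windows, 1 with the core) and Sgms2 (6 windows, 1 with the core) follow from that choice. The Spp1 window holds the core 128 bases before the start and the Sgms2 window 120 bases before it, whereas these letters are not in the windows of Ibsp and Col10a1. The core was in 16.8% of 32851 windows of all genes and in 12.2% of the windows of genes tested here. It was in 12.8% of windows of genes higher in the selected chondrocytes and in 10.9% of those of lower genes. For the matrix and mineralization list together with Ihh and Col10a1, 18 of 25 genes were matched and 7 of their 22 windows held it (31.8%). For the 15 genes named as the largest rises against Acan cells, 9 were matched and 2 of their 20 windows held it (10.0%), which are the windows of Spp1 and Sgms2 printed here. These are counts of letters in sequence, with no test.

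Signals to vessels, osteoclasts and marrow were divided. Of 27 tested, 11 were higher and 12 lower, with a median of -0.04. Within C5 9 of the 11 and 2 of the 12 kept the call, with 8 of the 12 fitted there. Wnt4 was the furthest of those that rose, from 16.7, 18.3 and 14.9 CPM to 147, 136 and 126 CPM (3.22 ± 0.08, edgeR adjusted p = 8.7e-08). Wnt5b (2.64), Wnt5a (2.02), the Wnt antagonist Frzb (1.58), Bmp6 (1.45) and Tgfb1 (1.33) also rose. Vegfa, which draws vessels into cartilage, measured 41.9, 65.2 and 45.9 CPM in Acan cells and 34.8, 58.4 and 37.5 CPM in the selected chondrocytes, which did not pass the test (-0.04 ± 0.08, edgeR adjusted p = 0.71). Its CPM were lower in each library, and they lack the TMM scaling that the fold change carries. Tnfsf11 (RANKL), the osteoclast-inducing ligand, did not pass either (edgeR adjusted p = 0.31), while its decoy receptor Tnfrsf11b fell by 0.56. Tnfrsf11b was at -0.42 within C5, -0.35 with matched UMIs and -1.25 after thinning (edgeR adjusted p = 0.026, 0.063 and 0.00053). Cxcl12, a ligand that retains blood stem cells, measured 2.74, 3.81 and 8.51 CPM and Kitl, the ligand of the Kit receptor, 1.56, 0.732 and 1.75 CPM in the selected chondrocytes. Both fell against all Acan cells, by 0.93 and 1.70 on the log2 scale, but within C5 Cxcl12 stood at 0.93 with an adjusted p of 0.071 by edgeR and Kitl could not be fitted. With matched UMIs Cxcl12 was at -0.81 and Kitl at -1.90 (edgeR adjusted p = 0.063 and 0.0048). After thinning they were at -0.31 and -1.94 (edgeR adjusted p = 0.67 and 0.072). Igf2 measured 134, 111 and 132 CPM and did not pass (0.03 ± 0.07, edgeR adjusted p = 0.80). Igf1 fell by 1.25 against all Acan cells and rose by 1.15 within C5 (edgeR adjusted p = 3.9e-05 and 0.0015), and stood at -0.48 after thinning (edgeR adjusted p = 0.15).

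Most cell cycle genes were lower. Of 18 cell cycle genes tested, 13 fell and 2 rose, with a median of -1.10, and 11 and 2 of them kept the call within C5. Mki67 measured 27.8, 62.6 and 33.3 CPM in Acan cells and 3.52, 12.3 and 7.2 CPM in the selected chondrocytes (-2.25 ± 0.14, edgeR adjusted p = 7.0e-06). Top2a, needed to separate chromosomes, fell by 2.13. The 2 that rose were Cdkn1c (p57), from 3503, 2511 and 2355 to 6757, 5127 and 4090 CPM (1.11 ± 0.06, edgeR adjusted p = 3.4e-06), and Cdkn1a (p21), from 121, 184 and 277 to 336, 233 and 338 CPM (0.89 ± 0.20, edgeR adjusted p = 0.0082, a call lost by DESeq2). The inhibitor Cdkn1b (-0.18), Ccnd1 (0.44) and Pcna (-0.29) did not pass. Cdkn1c did not overlap between the groups, and Cdkn1a overlapped, since Acan cells at P0 held more than the selected chondrocytes at E18.5.

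Core cartilage genes were mostly higher than in all Acan cells. Of 17 tested core chondrocyte genes 12 were higher and 2 lower, with a median of 0.37. Of the 12 that were higher, 6 kept the call within C5, where 1 (Cnmd) was lower instead, 7 kept it after thinning and 11 with matched UMIs. The type IX collagens Col9a1, Col9a2 and Col9a3 were at 0.066, 0.0071 and 0.039 within C5 and passed neither there nor after thinning. With matched UMIs they passed (edgeR adjusted p = 0.00076, 0.00021 and 9.3e-05). Hapln1, the link protein of aggrecan, rose by 1.45 ± 0.05 from 1969, 2195 and 2001 CPM, and Comp, an oligomeric matrix protein, rose by 1.46 ± 0.07. Sox9, the master regulator of cartilage, rose by 0.72 ± 0.06 but stood at 0.11 within C5 (edgeR adjusted p = 0.15). Ucma, a matrix protein of the resting and upper zones, went the other way. It measured 1352, 3522 and 3569 CPM in Acan cells and 154, 760 and 995 CPM in the selected chondrocytes (-2.19 ± 0.20, edgeR adjusted p = 5.8e-05).

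Of 14 hypoxia and glycolysis genes 10 were higher and 2 lower (median 0.44), of 13 secretory pathway genes 6 and 2 (median 0.17), and of 12 dissociation and stress genes 6 and 1 (median 0.20). Many of these calls were lost within C5 or after thinning, as were many over all genes. Of the 2516 higher calls over all genes 856 were kept within C5, 1140 after thinning and 1679 with matched UMIs. Of the 2454 lower calls 1475 were kept with matched UMIs. With matched UMIs 10 of the 10, 5 of the 6 and 6 of the 6 higher calls were kept. Of the 2 lower glycolysis calls 0 were kept with matched UMIs. Of the 10 glycolysis genes 3 kept the call within C5 and after thinning (Ldha, Slc2a1 and Bnip3), of the 6 secretory genes 4 and 2 did, and of the 6 stress genes 1 and 2 did. Lactate dehydrogenase Ldha rose by 0.67 ± 0.08 and was at 0.16 within C5. The collagen chaperone Serpinh1 rose by 0.42 ± 0.06 and was at 0.094 within C5 (edgeR adjusted p = 0.15). Stress genes differed among libraries as well, since 9.13%, 14.5% and 23.7% of the selected chondrocytes lay in the top 10% of stromal cells of their library by share of stress UMIs, against 19.7%, 13.9% and 15.9% of Acan cells. Their part in the results was not tested. Without those cells 2315 genes were higher and 2269 lower.

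Marker lists of other cell types went in different directions. Of 6 fibroblast genes 5 fell and 1 rose, all 4 pericyte and smooth muscle genes and all 3 articular genes fell, and of 7 osteoblast genes 5 rose and 2 fell, with a median of 3.73. Those 5 include Dmp1, which had no UMI in the selected chondrocytes at E18.5. Within C5 only 4 of the 5 could be fitted, and these 4 kept the call. Muscle, Schwann, osteoclast and erythroid markers gave 2, 2, 1 and 1 lower genes of 5, 4, 2 and 1 tested and none higher. Within C5 2 of the 5 lower fibroblast genes kept the call and 0 of the lower genes of the other lists did, several of which could not be fitted there. Endothelial and hematopoietic markers gave 0 of 4 and 0 of 2 tested, with 1 in each list at an unadjusted p under 0.05 by edgeR. Over all genes 6343 of 14140 were under that unadjusted p. Muscle markers summed to 19.0 CPM in the E18.5 selected chondrocytes, against 2.93 and 10.0 CPM at E16.5 and P0 and 9.48 CPM in Acan cells of E18.5, and 103 of those UMIs were of Myog. How many cells carried them was not counted.

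Outside the lists, the largest rises among genes reaching 100 CPM were in Fxyd2 (3.76), a regulator of the sodium pump, Prkg2 (3.54), a cyclic GMP-dependent kinase, Ppa1 (3.43), a pyrophosphatase, Serinc5 (3.29), Ccdc80 (3.14) and Smim5 (3.09). All of these passed the test within C5 too, at smaller changes of 1.73, 1.37, 1.26, 1.79, 1.66 and 1.16 in the same order. Ppa1 was also abundant, at 2351, 4173 and 3709 CPM against 318, 411 and 333 CPM. The largest falls were in 1520401A03Rik (-5.67), the lubricin gene Prg4 (-4.02), elastin (Eln, -3.25), Ogn (-3.21), Wif1 (-3.16), Abi3bp (-3.11), Col14a1 (-2.88) and Aspn (-2.58). Of these falls, only those of 1520401A03Rik (-1.21) and Ogn (-0.96) passed the test within C5. Prg4 (-0.39), Eln (-0.27) and Wif1 (-0.28) kept their sign there without passing, and Abi3bp (0.39), Col14a1 (0.56) and Aspn (0.25) lay on the other side of 0 and did not pass.

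Within the selected chondrocytes, Col10a1-leaning cells held more Ibsp, Spp1, Alpl, Pth1r and Bmp6 than Ihh-leaning cells and less Ptch1, Ucma and Birc5. Of 9165 genes tested 442 passed (4.82%), 308 higher (3.36%) and 134 lower (1.46%) in Col10a1-leaning cells, with a median log2 fold change over all genes of -0.01. Leaving out E16.5, which holds most Col10a1-leaning cells, reduced these to 140 and 56, and leaving out E18.5 raised them to 488 and 207. Median depth was 21493, 32448 and 26778.5 UMIs in Col10a1-leaning and 26235.5, 33748 and 31417 UMIs in Ihh-leaning cells. Ihh itself stood at 417, 389 and 394 CPM and 401, 418 and 400 CPM, a description because it defined the groups.

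**Figure D3:**
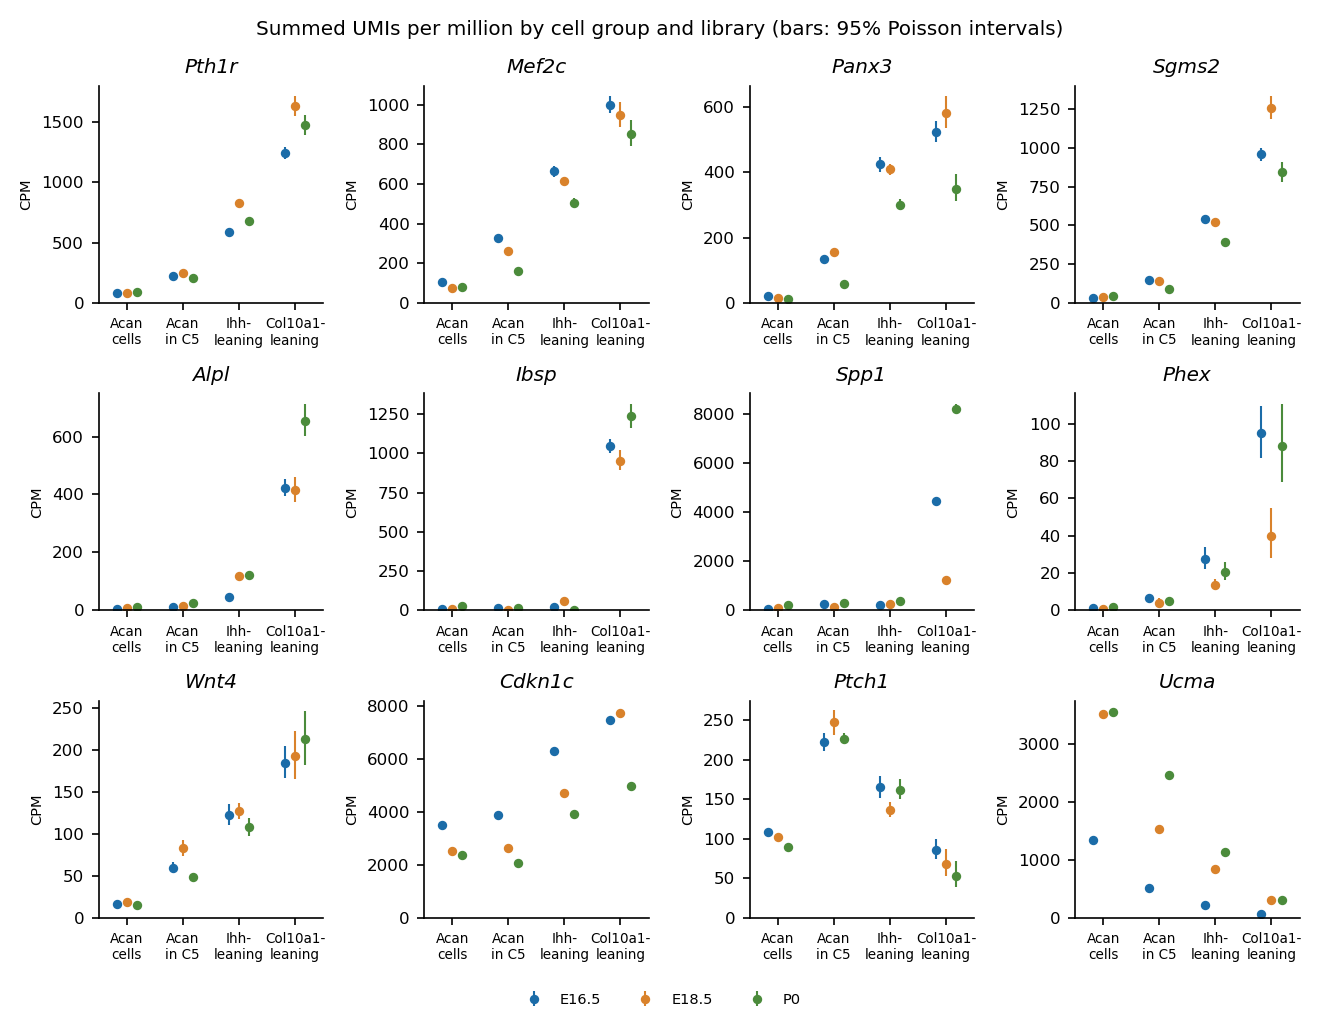
CPM (vertical) of 12 genes in Acan cells, Acan cells of cluster C5, Ihh-leaning and Col10a1-leaning cells, coloured by library, with 95% Poisson bars for counting error. Pth1r and Mef2c climb over the groups from left to right, Ibsp and Spp1 are highest in the Col10a1-leaning cells, and Ptch1 and Ucma are lower there than in Ihh-leaning cells.

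Ibsp and Spp1 separated the groups most. Ibsp measured 22.1, 59.2 and 2.65 CPM in Ihh-leaning and 1046, 954 and 1237 CPM in Col10a1-leaning cells (5.55 ± 0.50, edgeR adjusted p = 3.4e-05). Spp1 measured 189, 255 and 375 CPM against 4471, 1247 and 8222 CPM (3.85 ± 0.34, edgeR adjusted p = 3.4e-05). In each of these genes the groups were apart in 3 of 3 libraries, and Spp1 varied most among the Col10a1-leaning libraries, lowest at E18.5. Alpl (2.50), Ifitm5 (1.95), Phex (1.87) and Sgms2 (1.13) followed, and of 20 tested matrix and mineralization genes 7 were higher and 2 lower, with a median of 0.39. The 2 that fell were Bglap (-2.17), on 2.51, 4.3 and 4.95 CPM in Col10a1-leaning against 3.52, 23.6 and 40.5 CPM in Ihh-leaning cells, and the calcification inhibitor Mgp (-0.99). Panx3 and Smpd3 were already high in Ihh-leaning cells, at 425, 409 and 300 CPM and 643, 686 and 440 CPM, and rose by 0.40 and 0.52.

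Pth1r rose further from Ihh-leaning to Col10a1-leaning cells, by 1.11 ± 0.08 (edgeR adjusted p = 1.1e-05). Of 20 tested signals 7 were higher and 0 lower, among them Bmp6 (1.60 ± 0.16), Tgfb1 (1.15 ± 0.15), Frzb (1.02 ± 0.12), Bmp2 (0.85 ± 0.12) and Wnt4 (0.77 ± 0.12). The hedgehog targets Ptch1 and Gli1 fell, and Hhip (-1.50) did not pass (edgeR adjusted p = 0.085). Ptch1 measured 165, 136 and 162 CPM in Ihh-leaning and 85.9, 67.7 and 53.2 CPM in Col10a1-leaning cells (-1.09 ± 0.15, edgeR adjusted p = 0.00074), and Gli1, at 10.6, 10.2 and 13.5 CPM against 2.51, 2.15 and 6.19 CPM on 5, 2 and 5 UMIs, fell by 1.70 (edgeR adjusted p = 0.023). Of the 13 tested pathway genes 2 rose, Pth1r and Disp1, and these 2 fell.

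Of the 13 regulators tested 3 rose, Mef2c (0.71), Foxa2 (0.68) and Mef2d (0.63), and 0 fell. Of 15 cell cycle genes 4 fell and 2 rose, with a median of -1.13. Birc5, a survival and division gene, measured 23.1, 21.4 and 18.3 CPM in Ihh-leaning cells and 2.51, 0 and 3.71 CPM in Col10a1-leaning cells (-3.25 ± 0.44, edgeR adjusted p = 0.00074). Cdkn1a rose from 149, 200 and 252 to 630, 445 and 742 CPM (1.65 ± 0.15, edgeR adjusted p = 3.4e-05), and Cdkn1c rose by 0.49. Of the core chondrocyte genes 2 rose, Hapln1 and Comp, and 3 fell, Ucma, Epyc and Sox5. The glycolysis and secretory lists gave 1 called gene each, Eno1 lower and Creb3l1 higher, the osteoblast list gave 1 in each direction, and 0 of 12 stress genes passed, 4 of them at an unadjusted p under 0.05 by edgeR. Over all genes 1519 of 9165 were under that unadjusted p. Without E16.5 the calls of Gli1, Panx3, Foxa2, Mef2d, Eno1, Creb3l1, Epyc, Sox5 and Tnnt3 were lost.

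Among other genes that reached 100 CPM, F13a1, the transglutaminase chain of factor XIII, rose by 2.96, Irx5, a homeobox gene, by 2.58, Enpp2 (autotaxin) by 2.11, Serpine2 by 1.76 and Sox4 by 1.74. The largest falls were in Ucma (-1.73), which measured 218, 833 and 1143 CPM in Ihh-leaning and 53.3, 302 and 306 CPM in Col10a1-leaning cells, Tnnt3 (-1.22), C1qtnf3 (-1.19), Tpm1 (-1.14), Scrg1 (-1.04), Omd (-1.02), Tgfbi (-0.92) and Epyc (-0.88). Each of these passed with the same direction in 3 of 3 libraries.

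The antibody tags were a readout that the rule did not use. CD73, the ecto-5'-nucleotidase that makes adenosine and a marker of mesenchymal stroma, gave median counts of 82, 31 and 29 per selected chondrocyte and of 33, 15 and 20 per Acan cell. On the centred log ratio scale (CLR, per antibody over the cells of a library) the means were 1.39, 1.11 and 1.14 against 0.909, 0.762 and 0.872, with SDs over cells between 0.498 and 0.611. They were higher in 3 of 3 libraries. As a share of the antibody counts of a cell CD73 made up 90.8%, 80.0% and 52.8% against 79.6%, 72.2% and 46.7%. These differences are given without a test, and a two-sided exact permutation test over 3 paired libraries could not go below p = 0.25. Its transcript Nt5e, looked at after the antibody values were seen, measured 30.6, 60.1 and 74.0 CPM in Acan cells and 104, 119 and 142 CPM in the selected chondrocytes (log2 fold change 1.41 ± 0.15, edgeR adjusted p = 0.00013). Fibroblast clusters gave CD73 means of 0.902, 1.30 and 1.04, above the selected chondrocytes at E18.5, and the endothelial cluster gave 0.352, 0.331 and 0.579.

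CD140a (PDGFRA) averaged 0.353, 0.334 and 0.564 in the selected chondrocytes against 1.53, 1.27 and 1.18 in fibroblast clusters, and CD31 averaged 0.506, 0.391 and 0.666 against 4.79, 4.04 and 3.47 in the endothelial cluster. Sca-1 (antibody Ly6AE) averaged 0.606, 0.674 and 0.755 against 0.585, 0.585 and 0.704 in Acan cells and 0.781, 0.994 and 0.978 in fibroblast clusters. Its median counts were 4, 6 and 18 per selected chondrocyte and 4, 5 and 17 per fibroblast cluster cell. The mean counts were 5.67, 6.55 and 23.9 against 20.0, 70.0 and 117. Its transcript Ly6a gave 6, 5 and 5 UMIs in all selected chondrocytes, 1.17, 0.732 and 1.09 CPM, against 15.2, 79.3 and 115 CPM in fibroblast clusters.

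**Figure D4:**
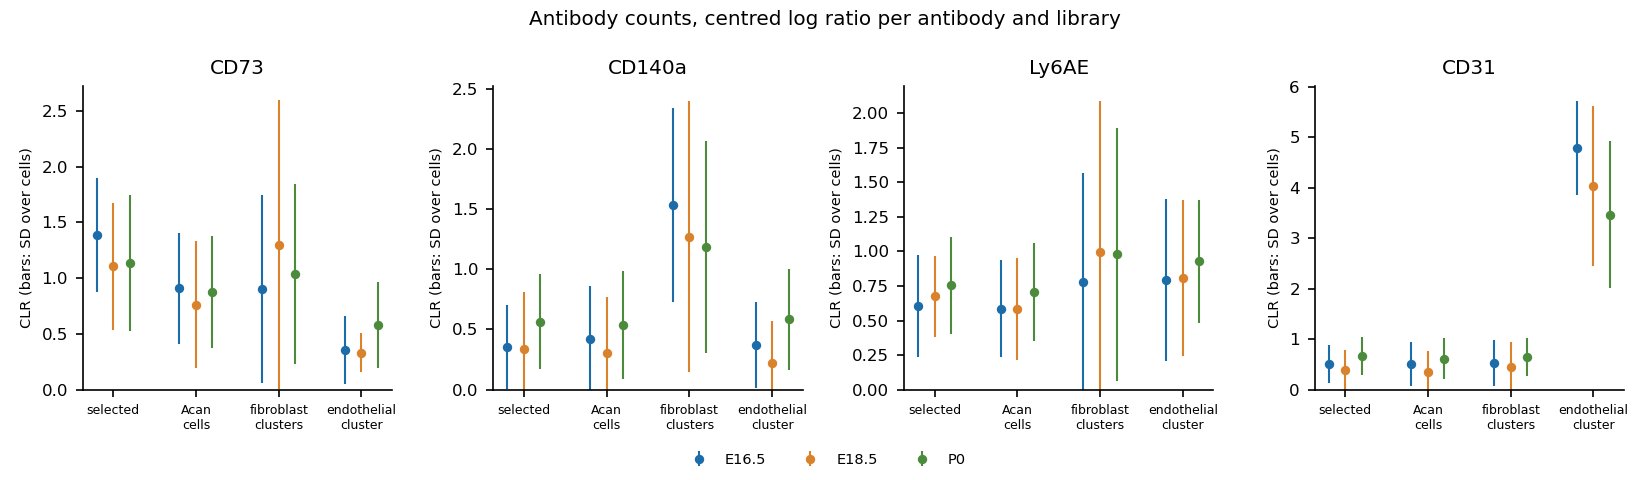
Mean CLR (vertical) of 4 antibodies in the selected chondrocytes, Acan cells, fibroblast clusters and the endothelial cluster, coloured by library, with bars for the SD over cells. CD73 is higher in the selected chondrocytes than in Acan cells at each stage, and CD31 is high in the endothelial cluster alone.

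Stages were compared as values of 1 library each. The selected chondrocytes made up 2.53% of stromal cells at E16.5 (exact 95% interval 2.20 to 2.89), 3.12% at E18.5 (2.71 to 3.56) and 1.08% at P0 (0.915 to 1.26). P0 was lowest. The order of the others turned when cells were thinned to 5000 UMIs before the rule was applied, which gave 1.03%, 0.651% and 0.317% of the 7989 of 8226, 6147 of 6642 and 11030 of 14084 cells that had that many UMIs, or when the share was taken of Acan-positive cells and selected cells together, 5.21%, 4.48% and 2.02%. Dissection, digestion and the capture of large cells cannot be told apart from a change in the tissue here.

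Col10a1-leaning cells were 42.3% of the selected chondrocytes at E16.5 (exact 95% interval 35.5 to 49.3), 13.5% at E18.5 (9.18 to 19.0) and 19.7% at P0 (13.7 to 27.0). E16.5 was also highest after thinning, at 84.1% against 50% and 65.7%. Summed Col10a1 followed, at 2745, 538 and 1175 CPM, whereas Ihh was at 407, 414 and 398 CPM. Within Col10a1-leaning cells alone Col10a1 was at 6974, 3751 and 6566 CPM. The P0 value leans on single cells with 1321 and 1316 Col10a1 UMIs. Medians per Col10a1-leaning cell were 84.5, 63 and 38.5 UMIs at E16.5, E18.5 and P0, lowest at P0.

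Of 1237 genes expressed well enough, the 5 with the largest ratio of P0 to E16.5 were Fxyd2, Hist1h1c, Ucma, Igfbp7 and Fmod. Fxyd2 measured 12.9, 122 and 181 CPM in the selected chondrocytes (log2 ratio of P0 to E16.5 of CPM plus 1, 3.71) and 5.26, 6.65 and 9.65 CPM in Acan cells, a smaller difference between the stages. Hist1h1c, a linker histone, measured 31.9, 77.3 and 295 CPM against 28.9, 54.7 and 183 CPM. Ucma at 154, 760 and 995 CPM, Igfbp7 at 45.8, 120 and 250 CPM and the collagen-binding Fmod at 105, 424 and 417 CPM had Acan cells beside them whose own values were higher at P0 than at E16.5.

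The 5 at the other end were Sox4, Irx5, the rule gene Col10a1, Klhl13 and AY036118. Sox4 measured 190, 55.7 and 67.2 CPM in the selected chondrocytes and 59.6, 52.5 and 59.4 CPM in Acan cells. In Col10a1-leaning cells it was at 368, 149 and 97.8 CPM and in Ihh-leaning cells at 77.2, 40.9 and 60.7 CPM. Irx5 was at 296, 140 and 172 CPM in Col10a1-leaning and at 43.5, 34.1 and 24.9 CPM in Ihh-leaning cells. The share of Col10a1-leaning cells was itself highest at E16.5, and its part in these differences was not tested. Klhl13 measured 125, 89.5 and 53.7 CPM against 46.6, 31.5 and 24.0 CPM, and AY036118 measured 1112, 272 and 480 CPM against 1882, 509 and 802 CPM. The ratio of P0 to E16.5 for AY036118 was 0.431 in the selected chondrocytes and 0.426 in Acan cells, so it was not particular to the selected chondrocytes.

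**Figure D5:**
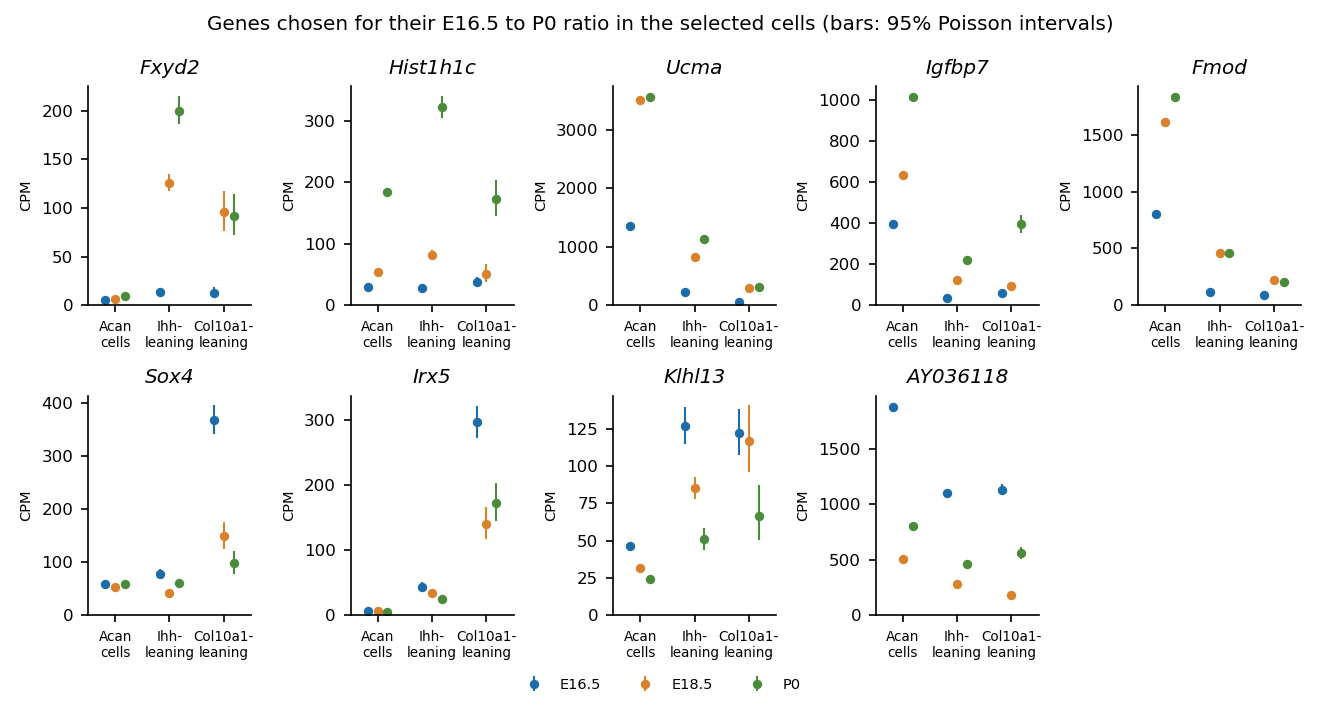
CPM (vertical) of 9 genes chosen for their ratio of P0 to E16.5 in the selected chondrocytes, shown for Acan cells, Ihh-leaning and Col10a1-leaning cells of each library with 95% Poisson bars. Fxyd2 is near 13 CPM in both kinds of selected cells at E16.5 and between 91.6 and 200 CPM later, and Sox4 is highest in Col10a1-leaning cells at E16.5.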

How the data were processed

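UMI counts and antibody counts per cell were used as the authors deposited them, without normalization. The authors had made the gene counts with Cell Ranger 3.1.0 on mm10, aggregated the libraries at default settings, which by default lowers deeper libraries toward the shallowest, and, in R 4.0 with Seurat 3.1.5, removed rarely detected genes and cells with few UMIs, a high mitochondrial share or the most genes or UMIs. The mitochondrial fraction per cell and the cluster codes also came from the deposited cell table. Counts were summed per library and cell group and tested by edgeR 4.0.16 (R 4.3.3) with TMM normalization, filterByExpr, a quasi-likelihood F test, the library as a replicate block and Benjamini-Hochberg adjustment over all genes tested, which left 2 residual degrees of freedom. Both groups of a pair came from the same library, which is what pairs them. The variance of each gene was moderated toward that of other genes. Each SE is the size of the log2 fold change divided by the square root of the F statistic. It is not the scatter of the library ratios, which can be wider. DESeq2 1.42.0 was an alternative. CPM intervals are exact Poisson and intervals on shares exact Clopper-Pearson at 95%, both for counting error only, and UMIs collapse PCR copies. The limit for the 782 endothelial and Schwann cells is instead 3 cells of the total. Descriptive steps used Python 3.11.15, numpy 2.4.6, scipy 1.17.1 and pandas 2.3.3. On simulated counts for 14003 and 8985 genes, 87% and 76% of 2-fold changes and 97% and 98% of 4-fold changes were found in the Acan and in the Col10a1 comparison. The changes were placed only in genes above a low expected count, with a common dispersion and the same mean in every library. These shares therefore do not cover genes of low count. The cells and the gene lists were chosen with earlier results of these data known. Genes outside the lists were named if they were among the 15 largest rises or 10 largest falls against Acan cells, the 10 largest each way between the leaning groups, or the 5 largest stage ratios each way, with at least 100 CPM in the higher group and, for tested comparisons, the same direction in every library. For stages at least 50 counts were also needed. Mitochondrial and ribosomal protein genes and Gm42418 were left out of this naming. Symbols were matched to RefSeq start-site windows of build GRCm38.p6.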

Additional observations from a re-analysis of the deposited data

Results flagged for a closer look

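For 7 genes the log2 ratio of selected chondrocytes over Acan cells (CPM plus 1) pointed in opposite directions at different stages, beyond counting error and by more than 0.3 in at least one library each way. These differences between stages were not tested, since each stage is 1 library. At E16.5, E18.5 and P0 the ratios were -0.32, 0.19 and 0.84 for Ccnd1 (cyclin D1), -0.39, -0.18 and 0.31 for Epyc and 0.84, -0.57 and -0.42 for Epas1, the hypoxia factor HIF-2 alpha. They were 0.37, 0.12 and -0.65 for Omd and 2.24, 0.21 and -0.95 for Mmp13, the last on 19, 3 and 1 UMIs in the selected chondrocytes. The muscle genes Myog, at -2.17, 2.06 and -1.61, and Myod1, at -1.62, 0.73 and -0.93, were high at E18.5 alone, where Myog gave 103 UMIs. How many cells carried Myog was not counted, and counting error does not cover UMIs gathered in few cells. Of the 207 selected chondrocytes at E18.5, 14 held 3 or more UMIs of endothelial, hematopoietic, muscle, pericyte, smooth muscle and Schwann markers together.

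The adult stromal library, which entered no comparison, held 213 cells that met the same rule, 3.40% of its 6267 stromal cells.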

How the results depend on the processing

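The 2516 higher and 2454 lower genes against Acan cells became 954 and 1112 without the replicate block and 986 and 649 within C5. With cells chosen after thinning to 5000 UMIs, shallower cells left out and full counts summed, they became 1243 and 1206. Leaving out 1 library in turn gave 1383 to 2448 higher and 1239 to 2289 lower genes, the lowest without E18.5. For Col10a1-leaning cells the 308 higher and 134 lower genes became 172 and 60 by DESeq2, 72 and 28 without the block, 190 higher with a cut of 10 UMIs and 291 lower without the filter on low counts. Leave-one-out gave 140 to 488 higher and 56 to 207 lower genes, lowest without E16.5 and highest without E18.5.

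The share of selected chondrocytes (E16.5, E18.5, P0) was 3.42%, 4.19% and 1.63% with a cut of 3 UMIs, 1.60%, 1.78% and 0.589% with 10, 1.03%, 0.651% and 0.317% after thinning and 5.21%, 4.48% and 2.02% of Acan-positive or selected cells. The Col10a1-leaning share became 32.0% at E16.5 with a cut of 3, 63.6%, 22.9% and 34.9% with 10, and 84.1%, 50% and 65.7% after thinning.

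Within C5 the direction was kept by 2140 of 2400 fitted higher and 1658 of 1860 fitted lower genes. Among the genes followed singly, which are those named in the text and a few more of the lists, these changed sign, and the cause was not tested. Within C5 the log2 fold changes were Abi3bp 0.39, Aspn 0.25, C1qtnf3 -0.33, Cnmd -0.13, Col14a1 0.56, Col1a1 0.38, Col1a2 0.076, Creb3l1 0.57, Cxcl12 0.93, Epyc -0.35, Fos -0.31, Igf1 1.15, Mgp -0.55, Ptch1 -0.72, Runx3 -0.095, Scrg1 -0.36, Tgfbi -0.23 and Tnnt3 -0.25. After thinning they were Ank 0.0011, C1qtnf3 -0.79, Cnmd -0.16, Epyc -0.83, Fos -0.31, Mgp -0.35, Ptch1 -0.25, Scrg1 -0.91, Tgfbi -0.56 and Tnnt3 -0.27. Against cells chosen by Col2a1 they were Hif1a 0.048 and Myog -2.0. Jun turned to 0.20 without E16.5 (of the values with 1 library left out the lowest was -0.13, without P0, of the same sign as with all libraries), and Myog turned to -2.24 without E18.5. With 1 library per stage and 30 or fewer Col10a1-leaning cells at E18.5 and P0, low genes there have wide counting intervals, and differences between stages have no replicate check.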
